A study of Mus musculus with 32 samples.

Results

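Dbp, Tef, Hlf, Nfil3, Bhlhe40 and Bhlhe41 encode transcription factors that carry the time signal of the circadian clock to its output genes. They were found by their symbols, 1 entry each, among the 16634 genes of an RNA-seq table of mouse gastrocnemius, the calf muscle, in which fast fibres predominate. Each of the 6 genes was above 0 in all 32 libraries, and all 6 passed the filter on low values that left 11975 genes for testing.

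The core clock is a feedback loop in which CLOCK and ARNTL switch on genes through E-boxes in DNA and PER and CRY proteins repress them. DBP, TEF and HLF are the PAR bZIP factors, activators that bind D-box sites. NFIL3, also called E4BP4, is a bZIP repressor that competes for the same sites. BHLHE40 and BHLHE41, also called DEC1 and DEC2, are bHLH repressors that bind E-boxes and so act on the clock itself. In many tissues Dbp, Tef, Hlf and the DEC genes are driven through E-boxes, and Nfil3 through RORE sites, at which the nuclear receptors ROR and REV-ERB compete.

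The 32 mice were 10 weeks old and of a mixed genetic background, and each gave 1 library. Mutants carried Sf1-Cre and Sirt1loxP/loxP, an allele pair meant to delete SIRT1, an NAD-dependent deacetylase, in SF1 neurons of the ventromedial hypothalamus. Controls were Sirt1loxP/loxP mice described as intact, so floxed Sirt1 was common to all groups, and an effect of Cre itself and of the lost gene cannot be told apart. Muscle was taken at Zeitgeber time (ZT) 0, 6, 12 and 18 h, with 4 mice of each genotype at each time, giving 8 groups. By the usual convention ZT0 is lights on and ZT12 lights off. The question addressed is whether the daily course of RNA in muscle depends on SIRT1 in these neurons.

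Values are FPKM, fragments scaled by gene length and by library total, so levels can be set side by side between genes. FPKM holds no read numbers, and the absolute depth is unknown. Steps among low values gave relative depths from 0.808 to 1.34 between libraries. Sirt1 RNA in muscle lay between 4.57 and 6.65 FPKM in controls (median 5.40) and between 4.02 and 6.32 FPKM in mutants (median 5.44). Muscle holds none of the targeted neurons, so this level does not check the genotype. All 8 markers of fast fibre and skeletal muscle were measured, with a summed level between 55117 and 130135 FPKM. Of these, Acta1 and Atp2a1 were listed at 0 in some libraries. Summed adipocyte markers (7 of 7 measured) ranged from 493 to 1538 FPKM in controls and from 436 to 2620 FPKM in mutants. Summed lymphocyte markers (8 of 8 measured) ranged from 1.57 to 82.0 FPKM in controls (median 3.22) and from 2.17 to 64.5 FPKM in mutants (median 31.6), and 6 of the 8 were at 0 in some library, Cd3d and Cd79a among them. With the lymphocyte and adipocyte levels as covariates, 80 of 84 results on the 6 genes kept their sign and their side of the threshold. In bulk muscle, fewer cells of a type and less RNA per cell cannot be told apart.

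RefSeq promoter windows (GRCm38.p6, the same assembly as mm10) from 250 bases before to 50 bases after the start were found for 5 of the 6 genes, with 2 windows for Tef. They are shown here because these factors both obey and act on short clock motifs. The windows were searched on both strands for the E-box CACGTG, its variant CACGTT, the RORE core AGGTCA and the D-box as TTATGTAA or TTACGTAA. CACGTG was present in both Tef windows, 127 and 138 bases before the start, and in the Bhlhe41 window, 153 bases before it. The match in the first Tef window, like that of Nfil3 below, lies before the RefSeq start but within an exon of the GENCODE annotation. Of 32851 windows of the same length, 7.15% held CACGTG. The Nfil3 window held the RORE core read on the other strand, TGACCT, 12 bases before the start, as did 16.3% of all windows in either reading. CACGTT was in 4.68% and the D-box in 1.06% of all windows, and in none of the windows of these 5 genes. The Dbp and Hlf windows held none of the searched letters. The stretches are printed 5′ to 3′ on the strand of the gene, with the match in capitals, and the Dbp stretch without a match is shown because Dbp had the widest daily swing of the 6.
Tef, window 1, chr15:81802534-81802563, plus strand: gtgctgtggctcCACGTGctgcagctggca
Tef, window 2, chr15:81811164-81811413, plus strand: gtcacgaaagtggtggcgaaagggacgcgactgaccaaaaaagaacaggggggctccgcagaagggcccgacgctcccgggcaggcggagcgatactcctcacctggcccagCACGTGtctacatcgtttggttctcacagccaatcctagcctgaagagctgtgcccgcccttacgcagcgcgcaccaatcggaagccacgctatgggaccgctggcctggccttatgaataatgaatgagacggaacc
Bhlhe41, chr6:145865559-145865670, minus strand: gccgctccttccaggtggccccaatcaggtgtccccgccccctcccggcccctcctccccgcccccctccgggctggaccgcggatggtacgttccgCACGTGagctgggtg
Nfil3, chr13:52981034-52981063, minus strand: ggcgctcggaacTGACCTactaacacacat
Dbp, chr7:45704997-45705087, plus strand: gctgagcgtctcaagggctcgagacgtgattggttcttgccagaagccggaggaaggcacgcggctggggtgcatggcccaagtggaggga
A match is a description of the letters and not evidence of a bound site.

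Across all 32 libraries Tef was the most abundant of the 6 RNAs, with a mean of 80.0 FPKM ± 18.4 (SD, n = 32). Dbp followed at 40.2 FPKM ± 34.1 and Bhlhe40 at 39.3 FPKM ± 10.4, with the same n. Nfil3 had 16.4 FPKM ± 8.28, Bhlhe41 14.4 FPKM ± 2.56 and Hlf 4.39 FPKM ± 1.48. These SDs include the change over the day, and Dbp, whose SD was close to its mean, spanned 3.36 to 120 FPKM.

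**Figure D1:**
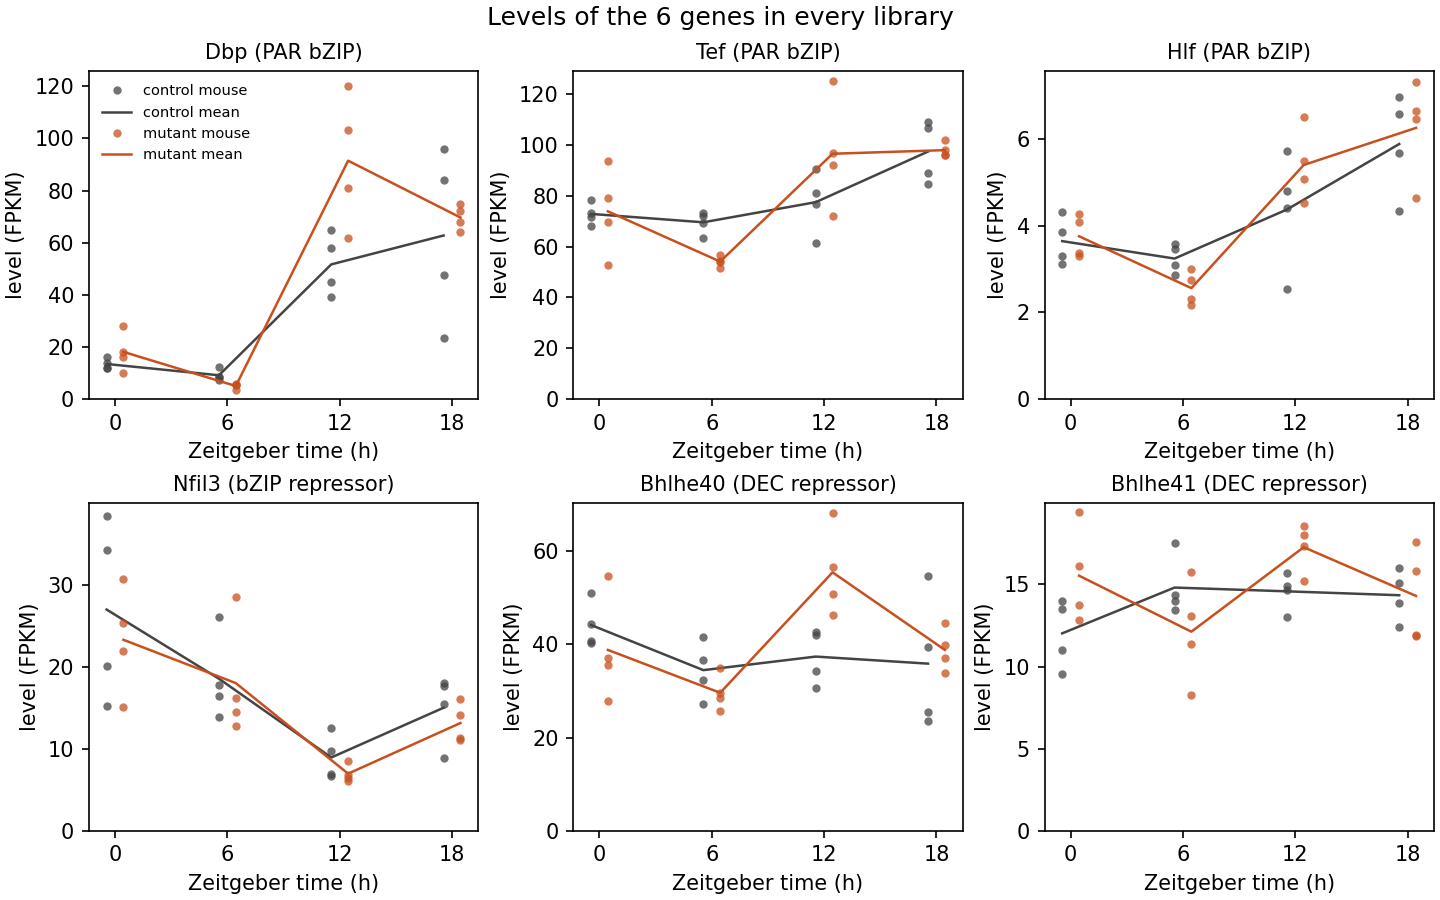
Levels in FPKM (vertical axis, starting at 0) of the 6 genes against Zeitgeber time in hours, with 1 point per mouse (control grey, mutant orange, drawn slightly apart) and lines through the means of 4 mice. Dbp, Tef and Hlf were lowest at ZT6 in both genotypes, Nfil3 was lowest at ZT12, and the points of Bhlhe40 and Bhlhe41 overlapped between most times.

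The first comparison asked which of the 6 RNAs followed a 24 h course in each genotype. Dbp and Hlf peaked in the dark phase and Nfil3 near ZT1 in both genotypes, and Tef passed the test in mutants only, though the test of the difference in its rhythm between genotypes was not called (adjusted p = 0.880, limma). The amplitude is given as log2 of (FPKM + 1) from the mean to the peak of a fitted 24 h cosine, and the call was an adjusted p under 0.05 in limma (F test, Benjamini-Hochberg over all genes). In controls 3 of the 6 genes were called, against 5.55% of all genes tested. In mutants 4 of the 6 were called, against 3.92% of all genes. The median amplitude of the 6 genes was 0.30 in controls and 0.51 in mutants, beside 0.10 and 0.09 over all genes. With 4 times spaced 6 h apart the peak time rests on the cosine form, and a daily pattern with another shape is only partly captured.

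Dbp, the PAR bZIP gene best known as a direct clock target, had the widest swing of the 6. In control mice its level was 11.8, 12.1, 14.0 and 16.0 FPKM at ZT0 and 7.41, 8.37, 8.55 and 12.2 FPKM at ZT6. It was then 39.0, 44.9, 58.0 and 64.8 FPKM at ZT12 and 23.5, 47.6, 84.1 and 95.8 FPKM at ZT18. Every control library at ZT12 and ZT18 lay above every control library at ZT0 and ZT6, while the ranges of ZT0 and ZT6, and those of ZT12 and ZT18, overlapped. In mutants the values were 10.1, 16.0, 18.0 and 28.2 FPKM at ZT0 and 3.36, 5.36, 5.37 and 5.97 FPKM at ZT6. At ZT12 they were 61.7, 81.0, 103 and 120 FPKM, and at ZT18 they were 63.9, 67.8, 72.1 and 74.8 FPKM. In mutants ZT6, ZT0 and the pair of dark times were 3 levels without overlap. The highest mean over the lowest was 6.87 in controls (ZT18 over ZT6) and 18.2 in mutants (ZT12 over ZT6). The 24 h amplitude was 1.55 ± 0.15 (SE) with a peak at ZT15.6 ± 0.37 h in controls (adjusted p = 1.29e-06, limma). In mutants it was 2.13 ± 0.15 with a peak at ZT15.8 ± 0.27 h (adjusted p = 3.46e-09). By amplitude Dbp was 12th of 11975 genes in controls and 6th in mutants.

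Dbp lies on chromosome 7, and the interval deposited for it in the mm10 build, chr7:45705246-45718002, is shared with Sphk2, a sphingosine kinase gene on the opposite strand. The interval also overlaps Rpl18, on the same strand as Dbp in the GENCODE annotation, whose level was not examined here. The libraries were stranded per the labels, but no source used here says whether strand was used in counting. Reads of these overlaps cannot be assigned with certainty. Sphk2 has an entry of its own, with a mean of 6.98 FPKM over 32 libraries and a maximum of 10.4 FPKM. Its 24 h component peaked at ZT2.55 in controls, with an amplitude of 0.24 (adjusted p = 0.0212, limma), and at ZT2.16 in mutants, with an amplitude of 0.23 (adjusted p = 0.0253). In both genotypes the mean of Sphk2 was lower at ZT12 and ZT18 (5.95 and 6.27 FPKM in controls, 6.13 and 5.98 FPKM in mutants) than at ZT0 and ZT6 (7.99 and 7.84, 8.41 and 7.29 FPKM), whereas Dbp was higher at the dark times.

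Tef, the PAR bZIP gene with the highest level here, moved over a narrower range. Its control values were 68.2, 71.8, 73.1 and 78.4 FPKM at ZT0 and 63.3, 69.4, 72.2 and 73.4 FPKM at ZT6. They were 61.4, 76.6, 81.2 and 90.7 FPKM at ZT12 and 84.7, 89.1, 107 and 109 FPKM at ZT18. The control ranges of neighbouring levels overlapped, and the highest time, ZT18, lay apart from the lowest, ZT6. In mutants Tef was 52.7, 69.8, 79.3 and 93.6 FPKM at ZT0 and 51.7, 53.8, 54.4 and 56.5 FPKM at ZT6. It was 72.0, 92.0, 96.9 and 125 FPKM at ZT12 and 95.9, 96.0, 98.1 and 102 FPKM at ZT18. The mutant libraries of ZT6 lay below all mutant libraries of both dark times. The amplitude was 0.24 ± 0.07 in controls, which missed the threshold (adjusted p = 0.0923, limma), and 0.46 ± 0.07 in mutants (adjusted p = 0.000501). The control call depended on the processing, with an adjusted p of 0.0195 under quantile normalisation, 0.00176 with library weights and 0.0297 with control groups alone in the fit. Peaks were fitted at ZT17.4 ± 1.1 h in controls and ZT16.4 ± 0.58 h in mutants.

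Hlf, the PAR bZIP gene with the lowest level, had the same order of times as Tef. In controls it was 3.11, 3.30, 3.85 and 4.33 FPKM at ZT0 and 2.86, 3.09, 3.46 and 3.57 FPKM at ZT6. It was 2.55, 4.42, 4.80 and 5.74 FPKM at ZT12 and 4.34, 5.68, 6.59 and 6.97 FPKM at ZT18. The ZT12 library at 2.55 FPKM was the lowest of all 16 controls, and only ZT18 stood clear of ZT6 and ZT0. In mutants Hlf was 3.32, 3.38, 4.09 and 4.26 FPKM at ZT0 and 2.18, 2.32, 2.76 and 2.99 FPKM at ZT6. It was 4.54, 5.08, 5.49 and 6.51 FPKM at ZT12 and 4.64, 6.46, 6.64 and 7.31 FPKM at ZT18. Here ZT6, ZT0 and the dark times did not overlap, as for Dbp in mutants. Amplitudes were 0.35 ± 0.08 in controls (peak ZT17.0 ± 0.83 h, adjusted p = 0.0144, limma) and 0.55 ± 0.08 in mutants (peak ZT16.5 ± 0.53 h, adjusted p = 0.000142). The control call was lost in 2 of 32 fits that each left out 1 library, control ZT18 library 2 or library 3, with adjusted p up to 0.0545.

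Nfil3, the repressor of D-box sites, had its highest mean at ZT0 and its lowest at ZT12 in both genotypes. The activators had their lowest mean at ZT6, so the courses differed in timing but were not mirror images. Its control values were 15.2, 20.1, 34.2 and 38.4 FPKM at ZT0 and 13.9, 16.4, 17.7 and 26.1 FPKM at ZT6. They were 6.65, 6.92, 9.72 and 12.5 FPKM at ZT12 and 8.93, 15.4, 17.7 and 18.0 FPKM at ZT18. All control libraries of ZT12 lay below those of ZT0 and ZT6, and ZT0 had the widest spread. In mutants Nfil3 was 15.2, 21.9, 25.3 and 30.8 FPKM at ZT0 and 12.8, 14.5, 16.2 and 28.5 FPKM at ZT6. It was 6.07, 6.43, 6.83 and 8.54 FPKM at ZT12 and 11.1, 11.3, 14.1 and 16.1 FPKM at ZT18. The mutant ZT12 group lay below every other mutant library. The amplitude was 0.74 ± 0.14 with a peak at ZT0.78 ± 0.71 h in controls (adjusted p = 0.00379, limma) and 0.81 ± 0.14 with a peak at ZT0.89 ± 0.65 h in mutants (adjusted p = 0.00167). Both calls held in all 32 fits without 1 library, with adjusted p up to 0.0210 in controls and 0.00777 in mutants.

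Bhlhe40, which encodes DEC1, had no called 24 h component. In order of time from ZT0 to ZT18 its control means were 44.1 ± 4.97, 34.5 ± 6.12, 37.4 ± 5.96 and 35.9 ± 14.4 FPKM (SD, n = 4 each). Its mutant means were 38.8 ± 11.3, 29.6 ± 3.87, 55.4 ± 9.41 and 38.8 ± 4.54 FPKM in the same order of times. In controls even the highest and lowest times overlapped, while the mutant libraries of ZT12 (46.4 to 68.1 FPKM) lay above all those of ZT6 (25.6 to 34.8 FPKM). The amplitude was 0.12 ± 0.10 in controls (adjusted p = 0.770, limma) and 0.33 ± 0.10 in mutants (adjusted p = 0.156), and the mutant value was called in 1 of 32 fits without 1 library (without mutant ZT0 library 2, adjusted p = 0.0407). The deposited interval chr6:108577035-108666925 reaches well upstream of the annotated gene and also covers the antisense transcript 0610040F04Rik, whose own entry had a mean of 0.153 FPKM. This interval also overlaps Gm38167, on the opposite strand, and Gm17055, on the same strand as Bhlhe40.

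Bhlhe41, which encodes DEC2, also had no called 24 h component. From ZT0 to ZT18 its control means were 12.0 ± 2.09, 14.8 ± 1.84, 14.6 ± 1.11 and 14.3 ± 1.58 FPKM (SD, n = 4 each). Its mutant means were 15.5 ± 2.93, 12.1 ± 3.12, 17.3 ± 1.47 and 14.3 ± 2.88 FPKM in the same order. The ranges of the highest and lowest time overlapped in both genotypes. The amplitude was 0.14 ± 0.08 in controls (adjusted p = 0.528, limma) and 0.14 ± 0.08 in mutants (adjusted p = 0.604). No setting tried called a 24 h component for Bhlhe41.

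**Figure D2:**
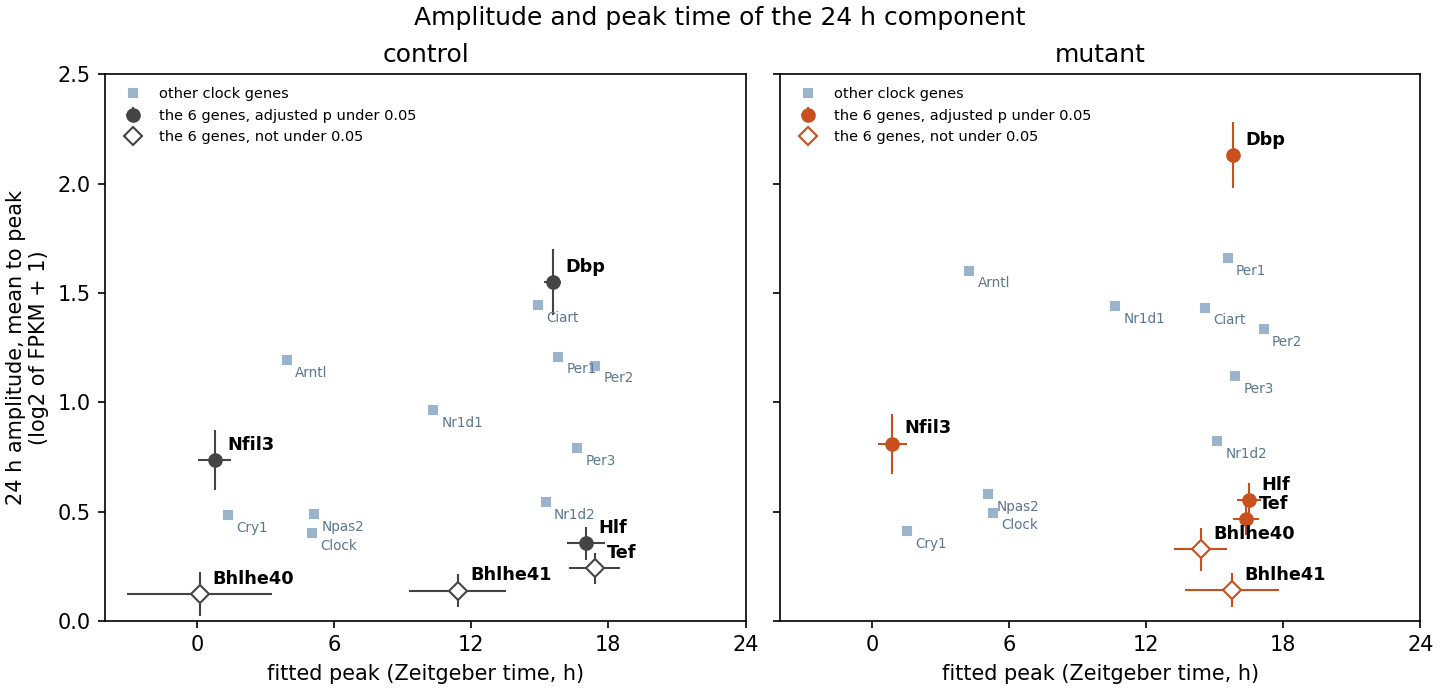
Fitted 24 h amplitude (vertical axis, log2 of FPKM + 1 from mean to peak) against fitted peak in Zeitgeber hours, controls left and mutants right. Bold names are the 6 genes with SE bars, filled where the adjusted p was under 0.05, and small squares are other clock genes. Dbp lies highest near ZT15.6 in controls and ZT15.8 in mutants, Nfil3 near ZT0.78 and ZT0.89, and both DEC genes are low.

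The steps between neighbouring times were tested as the mean of both genotypes, on log2 of (FPKM + 1). From ZT0 to ZT6 only Dbp was called, lower by a difference of -1.06 ± 0.21 (SE; adjusted p = 0.00450, limma), 1 of 6 against 2.31% of all genes lower and 1.38% higher. From ZT6 to ZT12, the later part of the light phase, 3 of 6 were higher (0.76% of all genes) and 1 was lower (1.59% of all genes). Dbp rose by 3.15 ± 0.21 (adjusted p = 1.92e-10), Hlf by 0.57 ± 0.11 (adjusted p = 0.00223) and Tef by 0.47 ± 0.10 (adjusted p = 0.00664). Nfil3 fell by 1.09 ± 0.19 (adjusted p = 0.00118) over the same 6 h. The Dbp p-value of this step was the smallest of all 11975 genes. Bhlhe40 had a difference of 0.50 ± 0.14 that was not called (adjusted p = 0.0625), but was called in 3 of 32 fits without 1 library (control ZT18 library 0 or 2, or mutant ZT0 library 2). Its means at ZT6 and ZT12 were 34.5 and 37.4 FPKM in controls and 29.6 and 55.4 FPKM in mutants.

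From ZT12 to ZT18 only Nfil3 was called, higher by 0.75 ± 0.19 (adjusted p = 0.0415, limma), 1 of 6 against 1.28% of all genes higher and 0.409% lower. This call was weak, as it was lost in 11 of 32 fits without 1 library and with the lymphocyte and adipocyte covariates (adjusted p = 0.0762). Dbp had a difference of -0.12 ± 0.21 between the dark times (95% interval -0.55 to 0.32; adjusted p = 0.824). This average joins means that were higher at ZT18 in controls (51.7 and 62.8 FPKM at ZT12 and ZT18) and lower in mutants (91.4 and 69.7 FPKM). From ZT18 to ZT0, 3 of 6 were lower (2.1% of all genes) and 1 was higher (4.06% of all genes). Dbp fell by 1.97 ± 0.21 (adjusted p = 8.81e-07), Hlf by 0.58 ± 0.11 (adjusted p = 0.00104) and Tef by 0.42 ± 0.10 (adjusted p = 0.00929), and Nfil3 rose by 0.76 ± 0.19 (adjusted p = 0.0159). In the mean of both genotypes, activators and repressor thus moved in opposite directions in the 6 h before each change of light. Between ZT6 and ZT12 Tef means went from 69.5 to 77.5 FPKM in controls and from 54.1 to 96.5 FPKM in mutants. Hlf means went from 3.25 to 4.38 FPKM in controls and from 2.56 to 5.41 FPKM in mutants. For both genes the control ranges of ZT6 and ZT12 overlapped, and no genotype by time difference was called. Endothelial markers also moved with time: Pecam1, Kdr and Cldn5, 3 of 5, were called in the control rhythm and Kdr alone in the mutant rhythm. The summed level of the 5 genes was 123 to 140 FPKM at ZT0 and 82.5 to 101 FPKM at ZT12 in controls, and 109 to 146 and 84.4 to 118 FPKM in mutants, and none of the 5 was at 0 in any library. Of 5 slow fibre markers 2 were lower from ZT18 to ZT0, Myh7 by a difference of -0.89 ± 0.24 (adjusted p = 0.0221) and Tnnt1 by -0.91 ± 0.24 (adjusted p = 0.0166). The summed slow fibre level was 656 to 1256 FPKM at ZT18 and 562 to 1146 FPKM at ZT0 in controls, and 777 to 1061 and 323 to 722 FPKM in mutants, with none of the 5 at 0 in any library. The part of these cell types in the results was not tested.

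The contrast left over by the 24 h fit is a 12 h component, (ZT0 - ZT6 + ZT12 - ZT18)/4, also the mean of both genotypes. None of the 6 was called, against 0.0668% of all genes, and 2 of the 6 had an unadjusted p under 0.05. Dbp had a value of 0.30 ± 0.08 (adjusted p = 0.117, limma), and Bhlhe40 0.17 ± 0.05 (adjusted p = 0.166). A positive value means that ZT0 and ZT12 together lay above ZT6 and ZT18 together.

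The genotype comparison asked whether mutants differed from controls over all times and at each time. None of the 6 genes was called in any of these tests. Over all genes the tests called 0.0251% for the mean of all times, 0.0167% for ZT0, 0.0167% for ZT6, 0.0251% for ZT12 and 0.0167% for ZT18. Over all times the mutant minus control difference was 0.18 for Dbp (95% interval -0.13 to 0.49), -0.01 for Tef (-0.16 to 0.13) and 0.04 for Hlf (-0.12 to 0.19). It was -0.17 for Nfil3 (-0.45 to 0.12), 0.08 for Bhlhe40 (-0.13 to 0.29) and 0.06 for Bhlhe41 (-0.09 to 0.22). A difference in the daily mean as large as 1 log2 unit therefore lies outside each of these intervals. None of the 6 had an unadjusted p under 0.05 over all times, and the adjusted p ranged from 0.814 for Nfil3 to 0.977 for Tef (limma).

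At ZT6 Dbp was lower in each mutant (3.36 to 5.97 FPKM) than in any control (7.41 to 12.2 FPKM), with means of 5.02 ± 1.14 and 9.13 ± 2.11 FPKM (SD, n = 4 each). The difference was -0.75 ± 0.30 (SE; 95% interval -1.37 to -0.13), and it did not pass the adjustment over all genes (adjusted p = 0.471, limma). Tef at ZT6 also had all mutants (51.7 to 56.5 FPKM) below all controls (63.3 to 73.4 FPKM), with a difference of -0.36 ± 0.14 (adjusted p = 0.471). With library weights Tef at ZT6 was called (-0.37, adjusted p = 0.0446), the 1 setting in which any of the 6 was called between genotypes. Over all genes that setting called 232 at ZT6, against 2 without weights. Hlf at ZT6 was -0.26 ± 0.15 (adjusted p = 0.517). Unadjusted p-values were under 0.05 for 2 of the 6 genes at ZT6 and for 1244 of 11975 genes. How often the 2 genotypes lay fully apart over all genes was not counted at any time. All 6 genes had negative differences at ZT6, none of them called in the fit without weights. Bhlhe41 was at -0.29 (adjusted p = 0.482, limma), Bhlhe40 at -0.20 and Nfil3 at -0.07. The median difference over all genes at ZT6 was -0.03. Summed lymphocyte markers at ZT6 had a median of 3.46 FPKM in controls (2.51 to 20.7) and 40.5 FPKM in mutants (4.18 to 64.2), and none of the 8 markers was called there. With the lymphocyte and adipocyte levels as covariates the differences of Dbp, Tef and Hlf kept their sign and none was called.

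At ZT12 the signs were the other way, except for Nfil3. Dbp averaged 91.4 ± 25.5 FPKM in mutants and 51.7 ± 11.8 FPKM in controls (SD, n = 4 each), with the lowest mutant (61.7) below the highest control (64.8). The difference was 0.80 ± 0.30 (SE; 95% interval 0.18 to 1.42; adjusted p = 0.196, limma). Bhlhe40 had all mutants (46.4 to 68.1 FPKM) above all controls (30.6 to 42.7 FPKM), with a difference of 0.56 ± 0.20 (95% interval 0.14 to 0.97; adjusted p = 0.188). Tef differed by 0.30 ± 0.14 (adjusted p = 0.272) and Hlf by 0.28 ± 0.15 (adjusted p = 0.336), both with overlapping groups. The Tef difference was 0.17 without mutant ZT12 library 0, and that of Hlf was 0.0947 without control ZT12 library 3. Without control ZT12 library 1 the Nfil3 value that follows was -0.13. Nfil3 had the opposite sign, -0.29 ± 0.27 (adjusted p = 0.596). Bhlhe41 differed by 0.23 ± 0.15 (adjusted p = 0.434, limma), and the median difference over all genes at ZT12 was 0.06. Unadjusted p-values were under 0.05 for 3 of the 6 genes at ZT12 and for 2085 of 11975 genes. At ZT0 the nearest to a call was Bhlhe41, with 0.34 ± 0.15 (adjusted p = 0.565), and at ZT18 none of the 6 had an unadjusted p under 0.05.

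**Figure D3:**
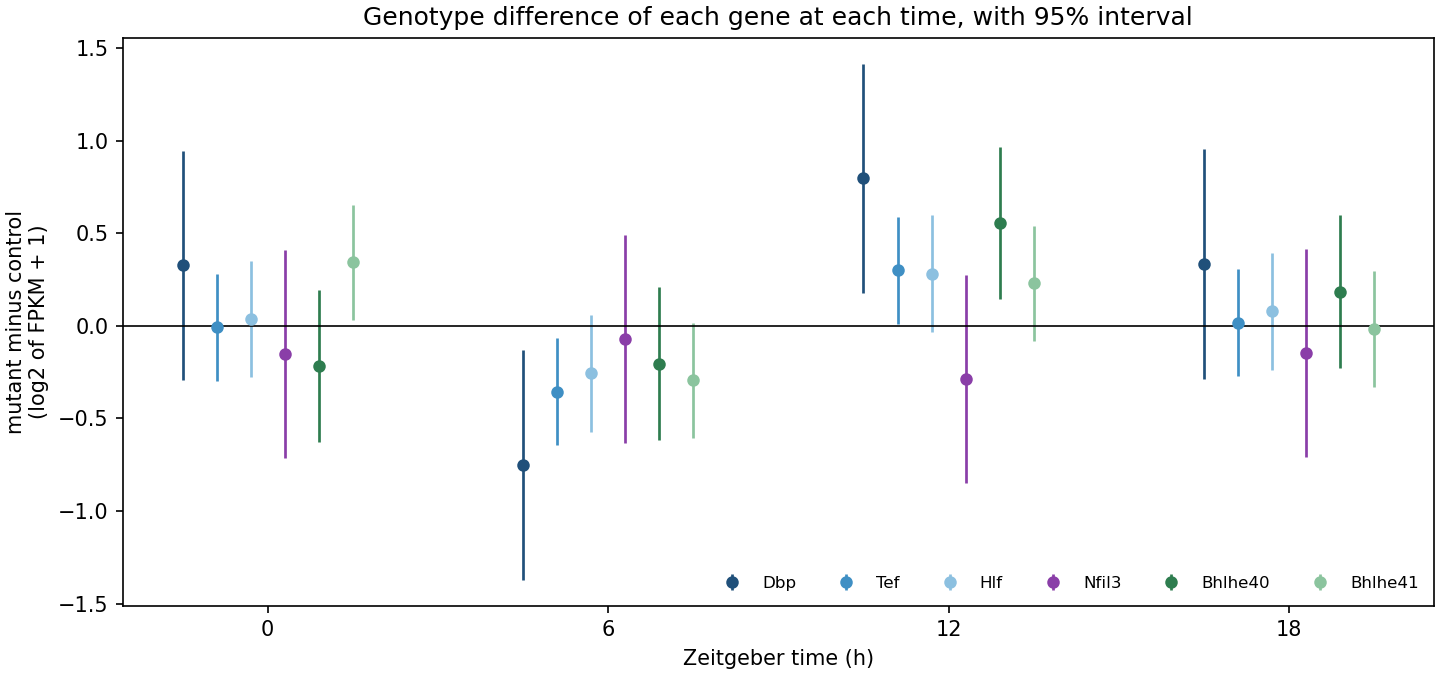
Mutant minus control difference (vertical axis, log2 of FPKM + 1) of each of the 6 genes at each Zeitgeber time, with bars for the 95% interval that is not adjusted for the number of genes. The Dbp point lies at -0.75 at ZT6 and at 0.80 at ZT12, and no point was called after adjustment.

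Whether the genotype difference changed with time of day, and whether the 24 h components differed, was tested directly. No gene of the 6 and 0% of all genes were called in either test. In the test of genotype by time the adjusted p was 0.249 for Dbp, 0.305 for Tef, 0.313 for Bhlhe41 and 0.322 for Bhlhe40 (limma). These 4 of 6 had an unadjusted p under 0.05, as did 1684 of 11975 genes, and the smallest adjusted p of all genes was 0.196. For the 24 h component, 2 of 6 had an unadjusted p under 0.05 (Dbp and Bhlhe40), as did 640 of all genes, with a smallest adjusted p of 0.468. The Dbp amplitude was 0.58 ± 0.21 larger in mutants (95% interval 0.14 to 1.02, not adjusted for the number of genes). The test of the 24 h component takes amplitude and peak time together, and its adjusted p for Dbp was 0.880 (limma F test). With these 4 mice per group a rhythm difference of Dbp was therefore not called, and amplitude alone was not tested. For Nfil3 the amplitude differed by 0.07 ± 0.19 (95% interval -0.32 to 0.47), and the same F test gave an adjusted p of 0.981.

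The shares of the 3 PAR bZIP activators in their summed level changed over the day. Dbp made up a median of 10.6% of their summed FPKM at ZT6 in controls (8.92% to 14.5%) and 39.0% at ZT12 (35.6% to 40.4%). In mutants the Dbp share was 8.62% at ZT6 (5.61% to 9.62%) and 46.1% at ZT12 (44.3% to 51.4%). Tef held the rest almost alone, with a median of 85.2% at ZT6 and 58.1% at ZT12 in controls. Hlf stayed between 2.47% and 5.02% in every library. The summed level of the 3 genes had a control median of 83.8 FPKM at ZT6 and 170 FPKM at ZT18, and a mutant median of 61.0 FPKM at ZT6 and 192 FPKM at ZT12. Tef RNA was above Dbp RNA in 31 of 32 libraries, the exception being a mutant library of ZT12.

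Dbp and Nfil3 encode an activator and a repressor of the same DNA sites, and the ratio of their RNA levels lay on either side of 1 at different times of day. In controls the Dbp to Nfil3 ratio was 0.306 to 1.05 at ZT0 (median 0.525) and 0.284 to 0.876 at ZT6 (median 0.496). It was 4.62 to 8.71 at ZT12 (median 5.42) and 1.33 to 9.43 at ZT18 (median 4.20). In mutants the medians were 0.911, 0.372, 13.7 and 5.61 in the same order of times. At ZT12 the mutant range, 9.02 to 16.0, lay above the control range. This ratio was not tested between genotypes, and the separate Dbp and Nfil3 differences at ZT12 were not called.

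**Figure D4:**
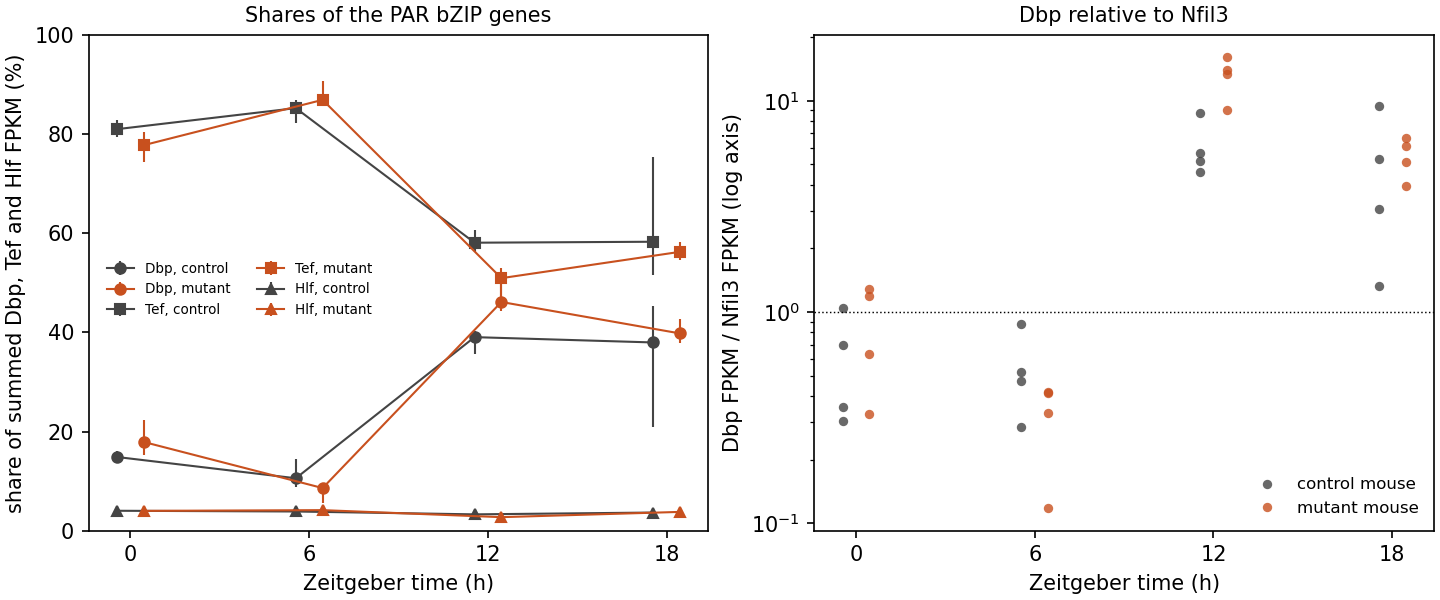
Left, share in percent of each PAR bZIP gene in the summed FPKM of Dbp, Tef and Hlf against Zeitgeber time, as the median of 4 mice with bars from the lowest to the highest mouse. Right, Dbp FPKM over Nfil3 FPKM for each mouse on a log axis, with a dotted line at 1. The Dbp share is lowest at ZT6 (10.6% in controls) and the ratio is above 1 in all libraries of ZT12 and ZT18.

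Library 0 of the control ZT18 group had the lowest Dbp of that group, 23.5 FPKM against 47.6 to 95.8 FPKM in the other 3, and also the lowest Tef (84.7), Hlf (4.34) and Bhlhe40 (23.6 FPKM). In the same library Arntl was at 8.84 FPKM against 1.12 to 3.53 in the others, Nr1d1 at 41.0 FPKM against 22.6 to 27.9, and Per3 at 5.69 FPKM against 8.13 to 13.9. Its summed fibroblast markers were at 435 FPKM against 1377 to 1787 in the others, and macrophage markers at 16.1 against 31.9 to 39.4 FPKM. Summed fast fibre and skeletal muscle markers were at 130135 FPKM against 108321 to 118356. The part of cell types in the values of this library was not tested. Without this library the control amplitude of Dbp was 1.71 instead of 1.55, and the mutant minus control difference in amplitude was 0.42 instead of 0.58. It was the fit with the highest control and the lowest difference among the 32 fits without 1 library, and the Dbp rhythm remained called in all of them.

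Deviations of single libraries from the mean of their own group show how the 6 genes varied among mice at the same time and genotype. These correlations are descriptions over 32 libraries that share their time of harvest within a group, and were not tested. Dbp and Tef deviated together (Pearson r = 0.73, Spearman rho = 0.65, and r = 0.77 without the 2 libraries farthest in Dbp), with r = 0.73 in controls and 0.81 in mutants. Tef and Hlf had r = 0.61 (rho = 0.56), and Dbp and Hlf r = 0.58 (rho = 0.58). Nfil3 and Bhlhe41 deviated in opposite directions, with r = -0.58 (rho = -0.58), -0.56 in controls and -0.65 in mutants. Dbp and Bhlhe40 had r = 0.50 (rho = 0.36), which was 0.38 without the 2 libraries farthest in Dbp, 0.61 in controls and 0.32 in mutants. Some pairs with a DEC gene differed in sign between genotypes. Dbp and Bhlhe41 had r = -0.18 in controls and 0.63 in mutants, and Nfil3 and Bhlhe40 had -0.53 and 0.36. Nfil3 had r = -0.36 with Dbp (rho = -0.44; -0.33 in controls and -0.43 in mutants), -0.02 with Tef and -0.04 with Hlf.

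**Figure D5:**
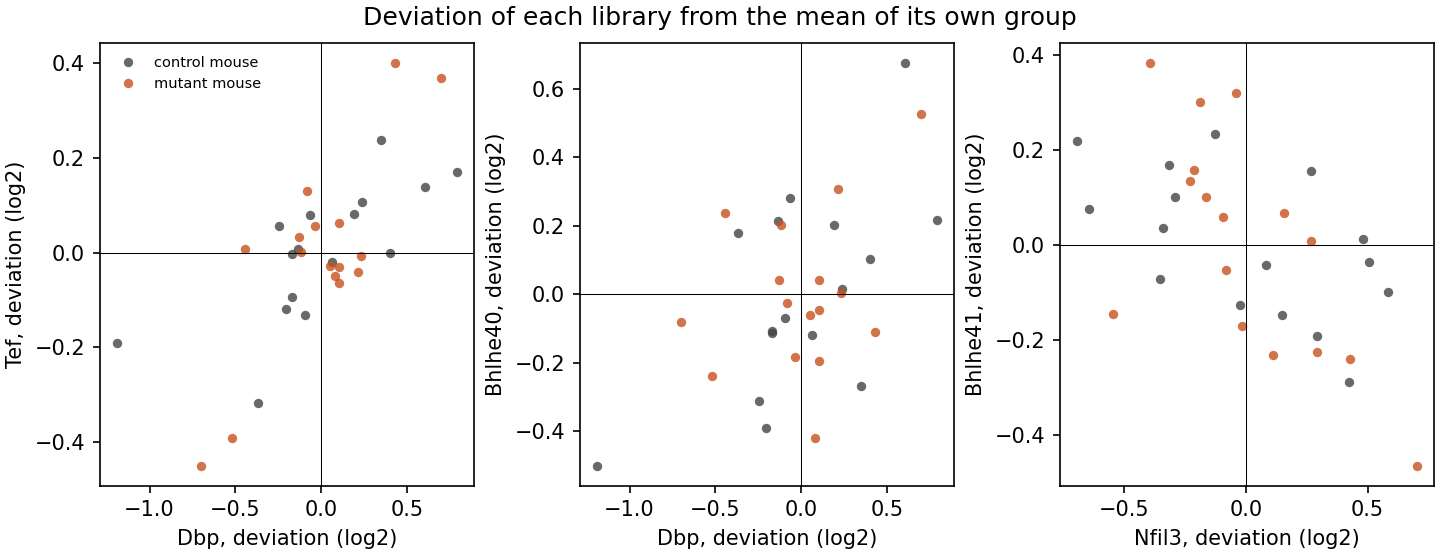
Each point is 1 library, and both axes give its deviation from its own group mean in log2 of (FPKM + 1), controls grey and mutants orange. Tef rises with Dbp (r = 0.73), Bhlhe40 less closely (r = 0.50), and Bhlhe41 falls with Nfil3 (r = -0.58).

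The genes most like each of the 6 over all 32 libraries were ranked by Pearson correlation on log2 of (FPKM + 1) among 11826 tested genes above 0 everywhere. These values include the shared time of day and are given with no test. Dbp was nearest to Per3 (0.96), Ciart (0.92) and Coq10b (0.92) and farthest from Arntl (-0.93) and Dyrk2 (-0.90). Tef was nearest to Per3 (0.90), Usp2 (0.90) and Hlf (0.88), and Hlf to Per3 (0.90), Tspan4 (0.89) and Per2 (0.88). Per3, a period gene that represses E-box activity, thus headed the list of all 3 PAR bZIP genes, and Arntl, the activator of the loop, stood at the far end for Tef (-0.81) and Hlf (-0.88) as well. The second farthest was Grk5 (-0.81) for Tef and Clock (-0.88) for Hlf. Nfil3 was nearest to Kalrn (0.87), Lonrf3 (0.81) and Slc16a9 (0.80) and farthest from Cecr2 (-0.75) and Mtx3 (-0.72). The DEC genes had weaker neighbours. Bhlhe40 was nearest to Ankzf1 (0.71), Gtf3c2 (0.70) and Lysmd2 (0.69) and farthest from Akap17b (-0.64) and Ppp1r3c (-0.63). Bhlhe41 was nearest to Limk2 (0.76), the joint entry of Mir3082 and Stub1 (0.76) and D1Ertd622e (0.75), and farthest from Ppp1r12a (-0.77) and Rbm22 (-0.74).

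The other genes of the pathway give the 6 genes their place in the daily order. Of the E-box activators, 3 of 3 (Arntl, Npas2 and Clock) were called in both genotypes, with control peaks at ZT3.93, ZT5.11 and ZT5.03. Of the other repressors of E-box activity, 5 of 6 were called in both genotypes, with Cry2 the exception. Ciart, the largest of these in controls, had an amplitude of 1.44 with a peak at ZT14.9, and Per1 had 1.21 at ZT15.8. Per2 had 1.17 at ZT17.4 and Per3 0.79 at ZT16.6. The Dbp control peak at ZT15.6 lay between those of Ciart (SE 0.36 h) and Per1 (SE 0.49 h). Of the nuclear receptors that act on RORE sites, 2 of 4 tested were called in both genotypes, Nr1d1 (peak ZT10.3 in controls) and Nr1d2 (ZT15.3). Rora was not called, and Rorb did not pass the filter.

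Clock genes with D-box sites in textbook accounts are candidate targets of DBP, TEF, HLF and NFIL3, and 6 of 7 tested were called in both genotypes. They were Per1, Per2, Per3, Cry1, Nr1d1 and Nr1d2. Cry1 peaked at ZT1.38 in controls with an amplitude of 0.48, close in time to Nfil3 at ZT0.78. Targets of PAR bZIP factors known from liver, kidney and brain were called in neither genotype, 0 of 4 tested of 8 listed. Over all genes 5.55% were called in controls and 3.92% in mutants, so 4 genes are too few to compare with these shares. Their median amplitude was 0.20 in controls and 0.22 in mutants, beside 0.10 and 0.09 over all genes. Pdxk, the pyridoxal kinase gene, had an amplitude of 0.26 in controls (adjusted p = 0.114, limma) and 0.24 in mutants (adjusted p = 0.222). Por, the partner reductase of cytochromes P450, had 0.20 in controls (adjusted p = 0.478) and 0.40 in mutants (adjusted p = 0.0629). Ddc, Nr1i3, Cyp2a5 and Cyp7a1 were not among the genes tested.

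Of the C/EBP genes, the bZIP family related to the PAR factors, 3 of 5 tested were called in both genotypes. Cebpd had a control amplitude of 0.78 with a peak at ZT17.9, Cebpb 0.55 at ZT20.6 and Ddit3 0.27 at ZT1.32. Of the bHLH-Orange genes related to the DEC factors, 0 of 4 tested were called in either genotype. Beside the shares over all genes, 5.55% in controls and 3.92% in mutants, a list of 4 genes is too short for a comparison. Of the myogenic bHLH genes 1 of 4 was called in both genotypes, Myod1, with an amplitude of 0.71 and a peak at ZT1.04 in controls and 0.52 at ZT23.0 in mutants. Myod1 thus peaked within 1 h of Nfil3 in controls, while Bhlhe40 and Bhlhe41, whose products can bind MYOD1, had no called rhythm. No gene of these lists was called in any genotype comparison.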

How the data were processed

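RNA-seq values of gastrocnemius from 32 mice were used as deposited: the authors' FPKM for each gene and library, on genome build mm10 per the submitters' processing notes. No source used here names the aligner, quantifier, gene annotation or any further scaling. Per the labels' protocols, stranded mRNA libraries were sequenced from 1 end in 4 pools. No source used here gives the pool of each sample, and pool and time cannot be told apart. Columns were matched to the 8 groups by genotype (WT read as control, TG as mutant) and time. Column numbers 0 to 3 name a library and pair nothing.

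Genes with at least 1 FPKM in at least 4 libraries were fitted on log2(FPKM + 1) with limma 3.58.1 in R 4.3.3, with 1 mean per group, a trended prior (3.37 degrees of freedom) and 24 residual degrees of freedom. Tests were 2-sided with Benjamini-Hochberg adjustment over 11975 genes and calls at an adjusted p under 0.05. The 1 FPKM added before the log understates the change of low genes such as Hlf. Amplitude SEs are from the delta method, as are the 95% intervals of amplitude differences. Other intervals are 95% intervals of limma's moderated test. Relative depth was read from 7084 low values, of which 71.7% were whole multiples of the step of their library to within 0.1 (20% if there were no steps). The scripts were tested on simulated data.

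Promoter windows are from RefSeq (GRCm38.p6) and gene overlaps from GENCODE M21. Motif matching used exact letters. All 6 genes and every called gene of each list are counted, and up to 4 of a list are named, those with the largest control amplitude, beside further list genes given with their values. Alternatives were another pseudocount (0.1), no filter or a stricter one, quantile normalisation, library weights, no trend in the prior, marker covariates, fewer groups in the fit and leaving out each library. The genes and lists were chosen with earlier results of these data known.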

Additional observations from a re-analysis of the deposited data

How the results depend on the processing

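Of the results on the 6 genes, no trend in the prior changed none of 84, and the stricter filter (a mean of at least 5 FPKM, which leaves out Hlf) none of 70. The smaller pseudocount left 83 of 84 as they were, no filter 83, quantile normalisation 81, covariates 80 and library weights 78, and a fit of only the groups compared left 35 of 36. The called rhythms of Dbp and Nfil3 in both genotypes, and of Tef and Hlf in mutants, held in all of these that tested them and in every fit without 1 library. Depth is unknown, so no limit of detection can be given, and 4 mice per group limit the precision.

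The step of Nfil3 from ZT12 to ZT18, the 1 called there, was lost with no filter (0 of 6 called; adjusted p = 0.0565), with library weights (0 of 6; adjusted p = 0.0719) and with covariates (0 of 6). Library weights added 1 gene, Tef, to the genotype calls at ZT6. Values near 0 that no test called turned sign. They were Bhlhe41 in the rhythm difference (-0.0291 with quantile normalisation, -0.0140 with weights), Hlf in the 12 h component (0.00489 with the smaller pseudocount, 1.93e-05 with covariates) and Bhlhe41 from ZT0 to ZT6 (0.0427 with weights). For the genotype difference they were Tef over all times (0.0181 with covariates), Nfil3 at ZT6 (0.00357 with quantile normalisation), Tef at ZT18 (-0.0210 with weights) and Bhlhe41 at ZT18 (0.0398 with covariates). The cause was not tested.

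Counts over all genes moved more. The stricter filter, which tests fewer genes, called 390 in the control rhythm, 287 in the mutant rhythm, 1 in the 12 h component, 274, 149 and 381 in the steps from ZT0, ZT6 and ZT18, 1 over all times between genotypes and 0 at ZT0, ZT6, ZT12 and ZT18. Library weights called 2233 and 752 in the control and mutant rhythm, 418 in the step from ZT12, 1, 232 and 10 between genotypes at ZT0, ZT6 and ZT12, and 42 by time. With only the groups compared the counts were 1221 and 249 for the rhythms, 0 at ZT12 and 1 at ZT18. Quantile normalisation gave 0 at ZT6 and 0 at ZT18.

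In fits that left out 1 library, the called genes of the 6 numbered 2 to 4 in the control rhythm, 4 to 5 in the mutant rhythm, 1 to 2 in the step from ZT0, 4 to 5 in that from ZT6 and 0 to 1 in that from ZT12. A 4th gene in controls was Tef without mutant ZT0 library 3, which also called Tef in the step from ZT0. Over all genes the fits without 1 library called 3 to 20 in the 12 h component, 281 to 546 in the step from ZT0 and 99 to 319 in that from ZT12. Between genotypes they called 1 to 2 at ZT6, 2 to 446 at ZT12 (the most without mutant ZT12 library 3), 0 to 3 at ZT18 and 0 to 93 by time (the most without mutant ZT0 library 3). Uncalled values that turned sign in some of these fits ranged from -0.0392 to 0.17 (Nfil3) and -0.0490 to 0.0605 (Bhlhe41) in the rhythm difference, and from -0.00422 to 0.0312 (Tef) and -0.0164 to 0.0222 (Hlf) in the 12 h component. In the steps they ranged from -0.0947 to 0.0467 (Bhlhe41 from ZT0) and -0.25 to 0.0827 (Dbp from ZT12). Between genotypes over all times they were -0.0453 to 0.0256 (Tef) and -0.0117 to 0.0655 (Hlf). At ZT0 they were -0.13 to 0.14 (Tef), -0.0197 to 0.10 (Hlf) and -0.39 to 0.0406 (Nfil3), and at ZT6 -0.30 to 0.0985 (Nfil3). At ZT18 they were -0.0634 to 0.60 (Dbp), -0.0472 to 0.0726 (Tef), -0.0394 to 0.19 (Hlf) and -0.12 to 0.0598 (Bhlhe41).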
